A study of Homo sapiens with 12 samples.

Results

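The enzymes that write and remove DNA methylation were measured after 3 days of differentiation of a human pluripotent line. The 8 genes, taken by symbol from the count table, were the methyltransferases DNMT1, DNMT3A and DNMT3B, the methyltransferase-like regulator DNMT3L, the dioxygenases TET1, TET2 and TET3, and UHRF1. They are 8 of 35940 symbols, each stood on 1 Ensembl identifier, and 8 of 8 passed the filter on low counts that left 17047 symbols for testing.

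Cells of ESI017, a human embryonic stem cell line carrying mCitrine as a reporter of SOX2, were grown as colonies on CYTOO micropatterns, adhesive areas of fixed shape, and sequenced as 12 libraries after 3 days. Treated colonies received FGF8 at 200 ng/ml together with WNT3A, were dissociated and were sorted by the reporter, so each SOX2-negative library has a SOX2-positive partner out of the same colonies. SOX2-negative cells gave 2 libraries at 100 ng/ml WNT3A, 1 at 300 ng/ml and 2 at 1000 ng/ml, and SOX2-positive cells gave the same numbers. Control colonies stayed in N2B27, a serum-free medium, with neither factor, and gave 2 libraries whose labels name no gate. Every group carries the reporter in this 1 line, and the gate reads SOX2 only, so a sorted fraction can hold several cell types.

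DNMT3A and DNMT3B set new methyl groups on cytosines of CpG pairs, and DNMT3L, which has no activity of its own, binds and stimulates them. DNMT1 copies existing methylation to the new strand after replication, guided there by UHRF1, which recognises half-methylated CpG. The TET enzymes oxidise methylcytosine, which leads to its loss through replication or base excision repair. Human pluripotent cells are known for high DNMT3B and TET1, and the exit from pluripotency is accompanied by a change in the make-up of both families.

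The promoter windows of DNMT3B and UHRF1 are shown because these genes had the largest called changes among the genes of ordinary abundance. They come from RefSeq on GRCh38.p14, hold 250 bases before and 50 after a start site, run 5′ to 3′ on the gene's strand, and have their CpG pairs in capitals. DNMT3B has 1 window in that table, at chr20:32779602-32779901 on the plus strand. UHRF1 has 3, of which the first, at chr19:4909251-4909550 on the plus strand, is given.
DNMT3B: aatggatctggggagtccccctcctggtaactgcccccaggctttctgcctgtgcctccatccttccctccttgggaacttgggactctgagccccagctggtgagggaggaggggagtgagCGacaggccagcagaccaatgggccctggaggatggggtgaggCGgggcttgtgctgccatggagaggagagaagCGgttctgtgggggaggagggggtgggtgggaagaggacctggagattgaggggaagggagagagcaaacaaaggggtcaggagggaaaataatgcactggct
UHRF1: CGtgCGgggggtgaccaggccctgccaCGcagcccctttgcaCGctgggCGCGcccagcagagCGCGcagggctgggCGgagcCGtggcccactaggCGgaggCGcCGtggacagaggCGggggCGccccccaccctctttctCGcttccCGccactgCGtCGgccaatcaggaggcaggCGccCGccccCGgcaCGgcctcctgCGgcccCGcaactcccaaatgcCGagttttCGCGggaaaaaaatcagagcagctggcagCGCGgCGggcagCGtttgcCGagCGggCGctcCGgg
The DNMT3B window holds 3 CpG pairs, and 18.2% of 35116 human windows hold fewer. The UHRF1 window holds 36, and 87.3% of windows hold fewer. The median window holds 14. The DNMT3B start site of this window lies 17467 bases inside the gene as GENCODE 29 draws it, so other starts of the gene are not covered. That of the UHRF1 window lies 6421 bases inside its gene.

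The windows of 7 members were searched on both strands for ATGCAAAT (the octamer of POU factors), CTTTGAT and CTTTGAA (TCF/LEF) and TTTGGCGC, TTTCCCGC and TTTCGCGC (E2F). DNMT3L has no window in the table. E2F letters were found in the windows of the maintenance pair, DNMT1 and UHRF1, and these 3 stretches are given with the matched letters in capitals. The DNMT1 stretch lies at chr19:10194936-10194967 on the minus strand, with its first matched base 2 bases before the start site. The stretches of the first and second UHRF1 windows lie at chr19:4909475-4909506 and chr19:4909972-4910003 on the plus strand, 14 and 160 bases before their start sites. These start sites lie 36333 bases inside DNMT1 and 6421 and 7064 bases inside UHRF1, so starts nearer the 5′ end of both genes are not covered.
DNMT1: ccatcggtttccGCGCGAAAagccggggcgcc
UHRF1 first window: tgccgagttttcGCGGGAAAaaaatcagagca
UHRF1 second window: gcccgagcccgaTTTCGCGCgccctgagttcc
TTTCGCGC, held on the opposite strand by DNMT1 and as written by the second UHRF1 window, stands in 0.515% of all windows. TTTCCCGC, held on the opposite strand by the first UHRF1 window, stands in 1.63%. Both strings contain CG, and the DNMT1 window and these UHRF1 windows hold 30, 36 and 40 CpG pairs, above the median of 14. The share among windows as rich in CpG was not counted. The first TET2 window holds CTTTGAA on the opposite strand, as 4.43% of windows do on either strand, and the windows of DNMT3A, DNMT3B, TET1 and TET3 hold none of the 6 strings. A match is a string of letters and not a measured site.

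The libraries held 16474856 to 28079048 estimated counts. SOX2 checks the gate, at 1.86 to 5.99 CPM (counts divided by a library total that TMM adjusts) in SOX2-negative libraries, 418 to 467 CPM in SOX2-positive libraries and 652 and 676 CPM in control. Against SOX2-positive cells, SOX2-negative cells were higher for 11 of 11 definitive endoderm markers and 9 of 12 primitive streak and mesoderm markers, and lower for 11 of 14 pluripotency markers, 5 of 12 neural markers and 1 streak and mesoderm marker, KDR. Surface ectoderm and amnion markers split, with 4 of 9 higher and 4 lower. Against control, SOX2-positive cells were higher for 6 of 14 pluripotency markers and lower for 2. Of 12 neural markers 4 were lower and 0 higher. Definitive endoderm markers had 5 of 11 higher and 3 lower, and primitive streak and mesoderm markers 4 of 12 higher and 2 lower. Surface ectoderm and amnion markers had 4 of 9 lower and 0 higher. Over all symbols 4.65% were called higher and 3.17% lower there. Neural markers summed to 419.8 to 611.5 CPM in SOX2-negative, 734.9 to 781.5 CPM in SOX2-positive, and 1802 and 2132 CPM in control libraries. No sample precedes day 3, so control stands for 3 days in N2B27 and not for the starting cells. All samples are labelled as pluripotent cells. POU5F1, a defining marker, was at 464 ± 205 CPM in SOX2-negative cells, 1438 ± 400 CPM in SOX2-positive cells (SD, n = 4 each) and 466 ± 51.9 CPM in control (SD, n = 2). NANOG, another, was at 7.84 ± 4.43, 61.9 ± 40.1 and 8.36 ± 2.34 CPM in the same order. One library stands apart. In SOX2-negative replicate 2 at 100 ng/ml, 782 genes with transcripts of 9 kb or longer lay at a median of -1.17 (log2) relative to 3275 genes with transcripts of 1.5 to 3 kb, and the other 11 libraries lay at -0.10 to 0.42. The transcripts of DNMT3A, TET1, TET2 and TET3 are 9.29 to 11.4 kb long, those of the other members 1.71 to 5.41 kb, and results are therefore given with and without that library where it moves them.

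**Figure D1:**
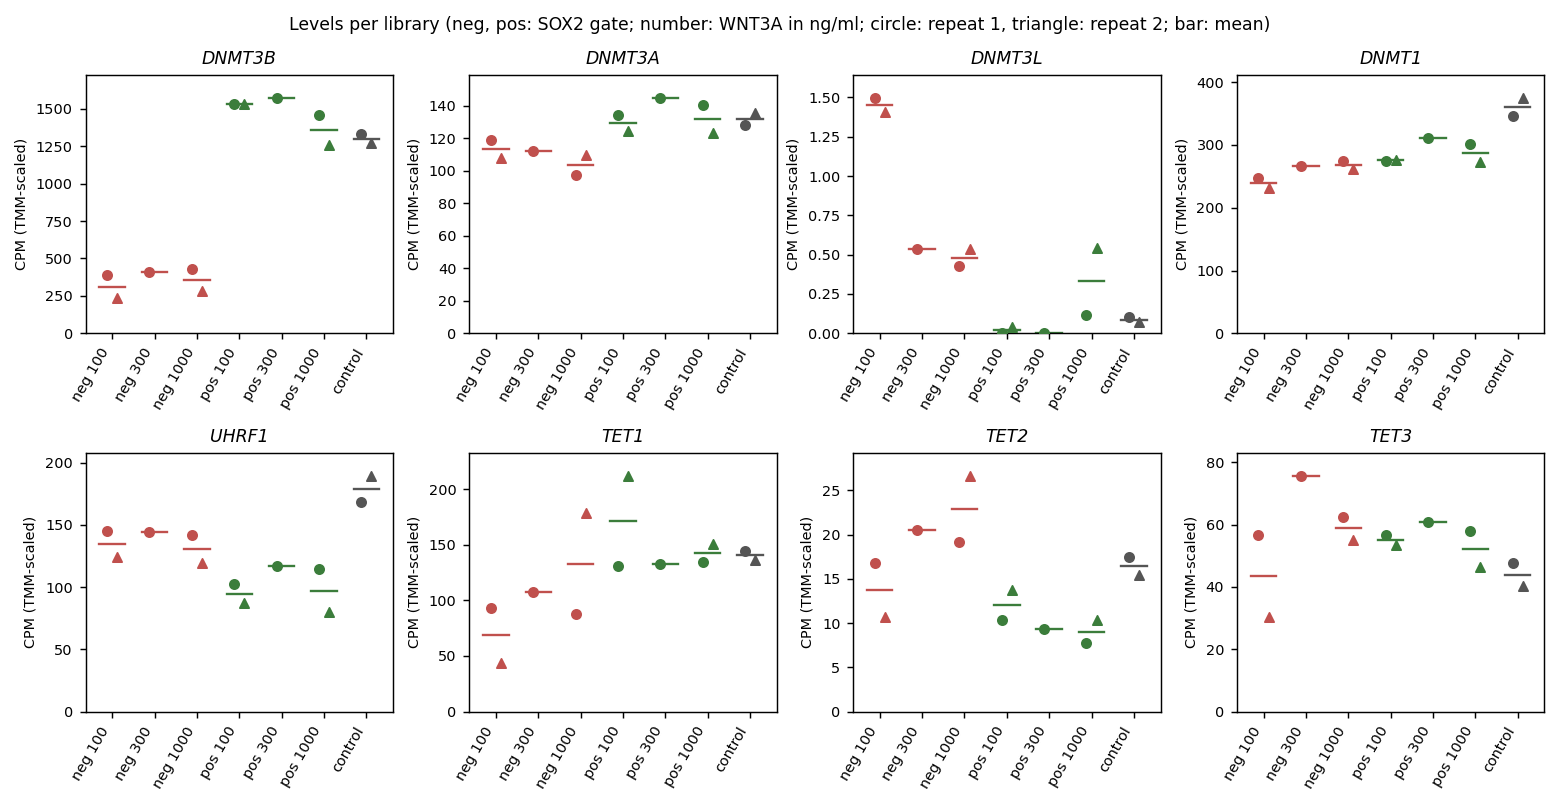
CPM of each gene in every library, with SOX2-negative cells on the left (red), SOX2-positive cells in the middle (green) and control on the right (grey), by WNT3A dose in ng/ml; circles are repeat 1, triangles repeat 2 and bars group means. DNMT3B lies between 233 and 431 CPM in the 5 SOX2-negative libraries and between 1260 and 1572 CPM in the 5 SOX2-positive libraries.

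DNMT3B (ENSG00000088305, chromosome 20, 32762385 to 32809356, plus strand) was the de novo enzyme that set the gates apart. DNMT3B values in SOX2-negative cells were 386.7 and 232.7 CPM at 100 ng/ml, 410.3 CPM at 300 ng/ml and 430.7 and 281.4 CPM at 1000 ng/ml. In SOX2-positive cells DNMT3B had 1530 and 1530 CPM at 100 ng/ml, 1572 CPM at 300 ng/ml and 1462 and 1260 CPM at 1000 ng/ml. Control colonies had 1329 and 1270 CPM of DNMT3B. Every SOX2-negative library lay below every other library, while the SOX2-positive and control libraries overlapped.

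Averaged over 100 and 1000 ng/ml, DNMT3B was at 333 ± 91.6 CPM in SOX2-negative cells and 1446 ± 128 CPM in SOX2-positive cells (SD, n = 4 each), which is 4.35-fold lower (log2 fold change -2.12 ± 0.19 SE, adjusted p = 2.7e-05 by edgeR's quasi-likelihood fit, Benjamini-Hochberg over all 17047 symbols). Against control at 1299 ± 41.8 CPM (SD, n = 2) the SOX2-negative cells were 3.91-fold lower (log2 fold change -1.97 ± 0.22 SE, adjusted p = 0.00012). SOX2-positive cells did not pass the test against control (log2 fold change 0.15 ± 0.23 SE, adjusted p = 0.78). Here and below, n = 4 counts libraries, 2 doses in each of 2 repeats, so the SD mixes dose with repeat. The main test did not use the pairing of gates. Within the 5 pairs of gates from the same colonies, the log2 ratio of SOX2-negative over SOX2-positive was -2.72 to -1.76. The gate difference was -1.96 (adjusted p = 1.7e-05) without the library poor in long transcripts. In sorted bulk samples, fewer cells expressing a gene and less of its RNA per cell cannot be told apart.

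Background for these calls was wide. Of all symbols, 12.9% were called higher and 11.1% lower in SOX2-negative than in SOX2-positive cells, 24% in all, and among the 8 genes DNMT3B was called lower and DNMT3L and TET2 higher. Against control, 22.5% of symbols were called in SOX2-negative cells, among them DNMT3B and DNMT1, both lower. In SOX2-positive cells 7.81% were called against control, 4.65% higher and 3.17% lower, among them UHRF1, which was lower. DNMT3B ranked 277 by p among all symbols in the comparison of the gates.

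DNMT3A (ENSG00000119772, chromosome 2, 25227855 to 25342590, minus strand), the de novo enzyme that most somatic cells retain, differed far less between groups. DNMT3A values in SOX2-negative cells were 118.8 and 107.8 CPM at 100 ng/ml, 112.5 CPM at 300 ng/ml and 97.5 and 109.8 CPM at 1000 ng/ml. In SOX2-positive cells DNMT3A had 134.5 and 124.6 CPM, 144.8 CPM, and 140.5 and 123.3 CPM at the same doses, and control colonies had 128 and 135.4 CPM. Each SOX2-negative library was below each library of the other groups, although by little. The fitted gate difference was -0.27 ± 0.13 SE (log2) and did not pass the test (adjusted p = 0.17, edgeR), nor did that against control (-0.28 ± 0.16 SE, adjusted p = 0.24). Among all symbols, 12% lay wholly lower in SOX2-negative than in SOX2-positive libraries, and DNMT3A and DNMT3B did so among the 8 genes. For DNMT3A, an offset for transcript length brought the gate difference to -0.04 ± 0.15 SE.

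As DNMT3B was lower in SOX2-negative cells and DNMT3A did not pass the test, the make-up of the pair differed between gates. Scaled to exonic length, DNMT3A made up 8.02% to 15.1% of the summed DNMT3A and DNMT3B in SOX2-negative libraries, 3.04% to 3.63% in SOX2-positive libraries and 3.58% and 3.95% in control. The SOX2-negative libraries lay above all others in that share. DNMT3B stayed the larger part in each library, at 84.9% or more.

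DNMT3L (ENSG00000142182, chromosome 21, 44246339 to 44262216, minus strand) was close to the limit of detection. SOX2-negative libraries held 25 and 33 estimated counts at 100 ng/ml, 10 at 300 ng/ml and 8 and 13 at 1000 ng/ml. In SOX2-positive libraries DNMT3L had 0 and 1, 0, and 2 and 12 estimated counts at the same doses, and each control library had 2. At 100 ng/ml the gates held 58 and 1 counts, a ratio of 64.2 (95% exact interval 11.1 to 2580, counting error only, as for the other intervals and floors). At 1000 ng/ml they held 21 and 14, a ratio of 1.36 with an interval of 0.66 to 2.89, so the gates were not distinguishable there. At 300 ng/ml the gates held 10 and 0 counts, which is at least 3.76-fold higher in the SOX2-negative library against a floor of 3 counts for the SOX2-positive library. That bound leaves out the counting error of the 10 counts, and the exact 95% interval of the ratio starts at 2.53.

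Over 100 and 1000 ng/ml DNMT3L was higher in SOX2-negative than in SOX2-positive cells, at 0.967 ± 0.564 and 0.176 ± 0.25 CPM (SD, n = 4 each; log2 fold change 3.11 ± 0.88 SE, adjusted p = 0.027, edgeR). The call was lost (adjusted p = 0.052 to 0.095) on leaving out either SOX2-negative library at 1000 ng/ml, either SOX2-positive library at 100 ng/ml or SOX2-positive replicate 1 at 1000 ng/ml. Against control the SOX2-negative cells did not pass (log2 fold change 3.19 ± 1.12 SE, adjusted p = 0.066), although their 5 libraries all lay above both control libraries, as 20.4% of symbols did. DNMT3L shares 241 exonic bases with the antisense gene AP001059.1, and with no strand setting stated, reads of the pair cannot be told apart.

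DNMT1 (ENSG00000130816, chromosome 19, 10133345 to 10231286, minus strand), the maintenance enzyme, was called lower in SOX2-negative cells than in control. DNMT1 values in SOX2-negative cells were 248 and 232 CPM at 100 ng/ml, 266.1 CPM at 300 ng/ml and 274.4 and 262.4 CPM at 1000 ng/ml. In SOX2-positive cells DNMT1 had 274.9 and 275.9 CPM, 310.7 CPM, and 301.1 and 272.9 CPM at the same doses. Control colonies had 345.5 and 374.7 CPM of DNMT1. The control libraries lay above all treated libraries, and the gates overlapped at 272.9 to 274.4 CPM. DNMT1 shares 83 exonic bases with S1PR2 on the same strand, among which the counting could split reads.

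In SOX2-negative cells DNMT1 lay 1.42-fold below control (log2 fold change -0.50 ± 0.15 SE, adjusted p = 0.032, edgeR). The call was lost on leaving out any of 7 single libraries (adjusted p = 0.055 to 0.26, the highest without control replicate 2). SOX2-positive cells did not pass against control (-0.36 ± 0.15 SE, adjusted p = 0.2), nor did the gates against each other (-0.15 ± 0.12 SE, adjusted p = 0.42). SOX2-positive and control libraries did not overlap for 42.7% of symbols, 21.3% being lower in SOX2-positive cells, and SOX2-negative and control libraries for 39.8%, 19.4% being lower in SOX2-negative cells. DNMT1 and UHRF1 were wholly lower in both, TET2 in SOX2-positive cells alone, and DNMT3A and DNMT3B in SOX2-negative cells alone.

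UHRF1 (ENSG00000276043, chromosome 19, 4903080 to 4962154, plus strand), which brings DNMT1 to replicated DNA, was lowest in the SOX2-positive cells. UHRF1 values in SOX2-negative cells were 144.9 and 123.8 CPM at 100 ng/ml, 143.9 CPM at 300 ng/ml and 141.5 and 119.4 CPM at 1000 ng/ml. In SOX2-positive cells UHRF1 had 102.2 and 87.2 CPM, 116.7 CPM, and 114.7 and 79.6 CPM at the same doses. Control colonies had 168.5 and 188.9 CPM of UHRF1. The 3 groups did not overlap, with SOX2-positive libraries lowest, SOX2-negative libraries between and control highest.

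SOX2-positive cells had 1.86-fold less UHRF1 than control (95.9 ± 15.7 CPM, n = 4, against 179 ± 14.5 CPM, n = 2, SD; log2 fold change -0.90 ± 0.19 SE, adjusted p = 0.017, edgeR). This call was lost without SOX2-positive replicate 2 at 100 ng/ml (adjusted p = 0.071) or at 1000 ng/ml (0.056), and without control replicate 1 (0.097) or 2 (0.23). Between the gates UHRF1 missed the threshold (132 ± 12.7 CPM in SOX2-negative against 95.9 ± 15.7 CPM in SOX2-positive cells, SD, n = 4 each; log2 fold change 0.46 ± 0.16 SE, adjusted p = 0.06). With the repeat as a block it passed (0.47 ± 0.15 SE, adjusted p = 0.046), and without the library poor in long transcripts it passed too (0.52 ± 0.15 SE, adjusted p = 0.032). SOX2-negative libraries were wholly higher than SOX2-positive libraries for UHRF1, as for 12.6% of symbols, and within pairs the log2 ratio was 0.302 to 0.584. Against control, SOX2-negative cells did not pass (-0.43 ± 0.19 SE, adjusted p = 0.14).

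The 19 genes of S phase and replication summed to 2558 to 3323 CPM in SOX2-negative libraries, 3189 to 3699 CPM in SOX2-positive libraries and 3974 and 4421 CPM in control, and none of the 19 is at 0 in a group mean. Against control, 12 of 19 were lower in SOX2-negative cells, beside 10.1% of all symbols. In SOX2-positive cells 2 of 19 were lower, beside 3.17% of all symbols, the replication licensing factor CDC6 (100 ± 12.3 CPM, n = 4, against 162 ± 5.02 CPM in control, n = 2, SD) and the ribonucleotide reductase subunit RRM2. Between the gates 3 of 19 were lower in SOX2-negative cells, MCM6, MCM3 and GINS1, beside 11.1% of all symbols. This count rose without the library poor in long transcripts, but leaving out a library also moved the calls over all symbols. Each SOX2-negative library had more UHRF1 than its partner. The sum of 13 genes of G2 and mitosis overlapped between groups, at 1763 to 2678, 2108 to 2803, and 2521 and 2540 CPM for SOX2-negative, SOX2-positive and control libraries. The part of the cell cycle in the DNMT1 and UHRF1 values was not tested.

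**Figure D2:**
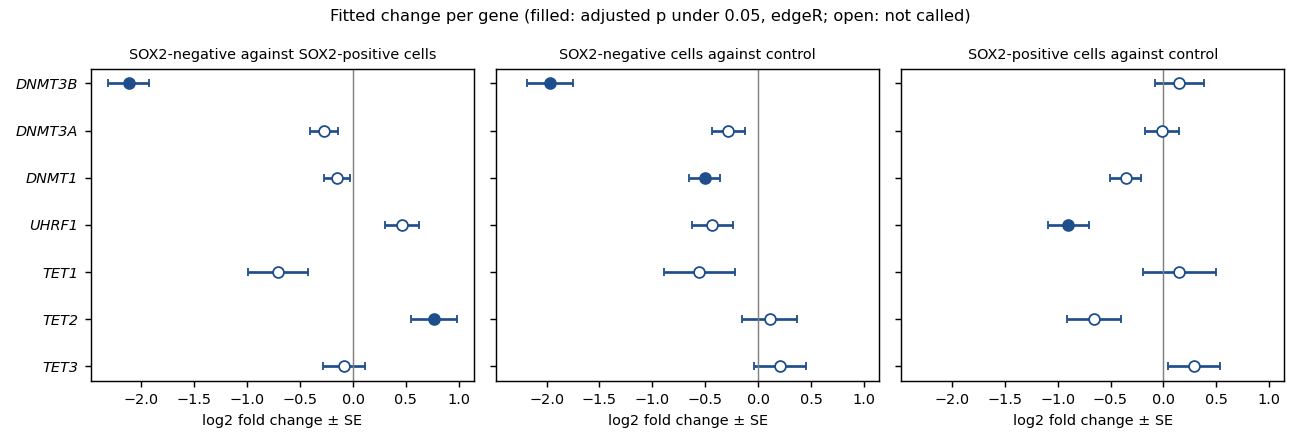
Fitted log2 fold change with its SE for 7 of the 8 genes in each comparison; filled points passed an adjusted p of 0.05 (edgeR) and open points did not. DNMT3B lies near -2 for SOX2-negative cells against both SOX2-positive cells and control, and UHRF1 is the one filled point for SOX2-positive cells against control; DNMT3L, with 0 to 33 counts, is left out.

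TET1 (ENSG00000138336, chromosome 10, 68560656 to 68694482, plus strand), the main TET enzyme of pluripotent cells, spread widely among SOX2-negative libraries. TET1 values in SOX2-negative cells were 93.4 and 44.1 CPM at 100 ng/ml, 107.5 CPM at 300 ng/ml and 87.4 and 178.5 CPM at 1000 ng/ml. In SOX2-positive cells TET1 had 130.4 and 211.4 CPM, 133 CPM, and 134.3 and 150.6 CPM at the same doses. Control colonies had 144.7 and 136.3 CPM of TET1. In 4 of 5 pairs the SOX2-negative library was the lower one, and the exception was replicate 2 at 1000 ng/ml.

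The gate difference of TET1 did not pass the test (101 ± 56.3 CPM in SOX2-negative and 157 ± 37.5 CPM in SOX2-positive cells, SD, n = 4 each; log2 fold change -0.71 ± 0.28 SE, adjusted p = 0.096, edgeR). It was -0.49 ± 0.25 SE (adjusted p = 0.19) without the library poor in long transcripts, and -1.04 ± 0.26 SE (adjusted p = 0.0096) without the other SOX2-negative replicate at 100 ng/ml. An offset for transcript length gave -0.60 ± 0.20 SE (adjusted p = 0.046). Leaving out SOX2-negative replicate 2 at 1000 ng/ml also gave a call (adjusted p = 0.034). Against control neither gate passed, with adjusted p = 0.27 for SOX2-negative and 0.87 for SOX2-positive cells.

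TET2 (ENSG00000168769, chromosome 4, 105145875 to 105279816, plus strand), the TET enzyme that lacks a CXXC DNA-binding domain of its own, was the one of the 3 called between the gates. TET2 values in SOX2-negative cells were 16.8 and 10.7 CPM at 100 ng/ml, 20.6 CPM at 300 ng/ml and 19.2 and 26.6 CPM at 1000 ng/ml. In SOX2-positive cells TET2 had 10.3 and 13.7 CPM, 9.37 CPM, and 7.72 and 10.4 CPM at the same doses. Control colonies had 17.4 and 15.5 CPM of TET2. SOX2-negative cells were higher in 4 of 5 pairs, the exception being the library poor in long transcripts, and control lay above all SOX2-positive libraries.

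TET2 was 1.7-fold higher in SOX2-negative cells (18.3 ± 6.56 CPM against 10.5 ± 2.46 CPM in SOX2-positive cells, SD, n = 4 each; log2 fold change 0.76 ± 0.22 SE, adjusted p = 0.026, edgeR). Without the library poor in long transcripts it was 0.90 ± 0.20 SE (adjusted p = 0.0073), and with the length offset 0.96 ± 0.16 SE (adjusted p = 0.0013). The call was lost without SOX2-negative replicate 2 at 1000 ng/ml (adjusted p = 0.095), SOX2-positive replicate 1 at 100 ng/ml (0.1) or at 1000 ng/ml (0.11), and with plain library totals (0.054). Against control, SOX2-positive cells did not pass (-0.66 ± 0.26 SE, adjusted p = 0.17) and SOX2-negative cells were at 0.11 (adjusted p = 0.82).

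TET3 (ENSG00000187605, chromosome 2, 73986404 to 74108176, plus strand), best known from the zygote and neurons, was not called in any comparison. TET3 values in SOX2-negative cells were 56.6 and 30.4 CPM at 100 ng/ml, 75.5 CPM at 300 ng/ml and 62.5 and 55.1 CPM at 1000 ng/ml. In SOX2-positive cells TET3 had 56.8 and 53.3 CPM, 60.8 CPM, and 58.1 and 46.4 CPM at the same doses, and control colonies had 47.6 and 40.2 CPM. The gates overlapped, with a fitted difference of -0.09 ± 0.20 SE (log2, adjusted p = 0.8, edgeR) that was 0.10 ± 0.14 SE (adjusted p = 0.63) without the library poor in long transcripts. Neither gate passed against control (adjusted p = 0.6 for SOX2-negative and 0.56 for SOX2-positive cells).

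In the library poor in long transcripts, TET1 lay at -1.46 relative to its own mean over the 12 libraries on the log2 scale, TET3 at -0.783 and TET2 at -0.376. DNMT3A, about as long as TET1, lay at -0.182. The lowest TET1 and TET3 values of the 12 libraries were in this library, and the lowest TET2 value was in a SOX2-positive one.

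**Figure D3:**
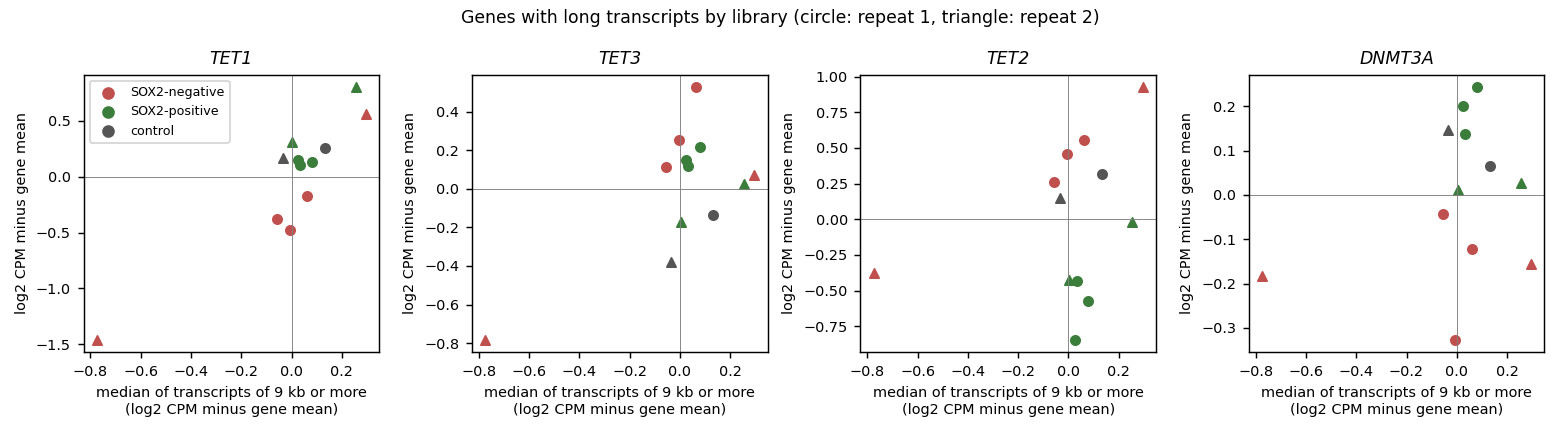
For TET1, TET3, TET2 and DNMT3A, the log2 CPM of each library minus the gene's mean (vertical) against the median of the same quantity over 782 genes with transcripts of 9 kb or longer (horizontal). SOX2-negative replicate 2 at 100 ng/ml lies alone on the left at -0.774, where TET1 and TET3 are lowest.

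Shares within the TET family do not depend on library scaling, but they do depend on losses that differ between the 3 genes. In the library poor in long transcripts TET1 lay at -1.46, TET3 at -0.783 and TET2 at -0.376 (log2). That library held the highest TET2 share, 8.27%, although its TET2 level was the lowest of the SOX2-negative libraries. The other SOX2-negative libraries held 6.37% to 7.42%. Scaled to exonic length, TET2 made up 6.37% to 8.27% of the TET sum in SOX2-negative libraries, 2.38% to 3.25% in SOX2-positive libraries and 4.98% and 5.16% in control, and these 3 ranges do not overlap. For TET1 the ranges were 60.1% to 75.9%, 72.2% to 81.5%, and 75.9% and 77.7% in the same order, and for TET3 17.7% to 32.5%, 15.6% to 25%, and 17.3% and 18.9%. Scaling to the longest transcript instead moved TET2 to 9.81% to 12.5%, 3.74% to 5.06%, and 7.72% and 7.98%, again without overlap. The TET1 and TET3 shares overlapped between gates on either scale.

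**Figure D4:**
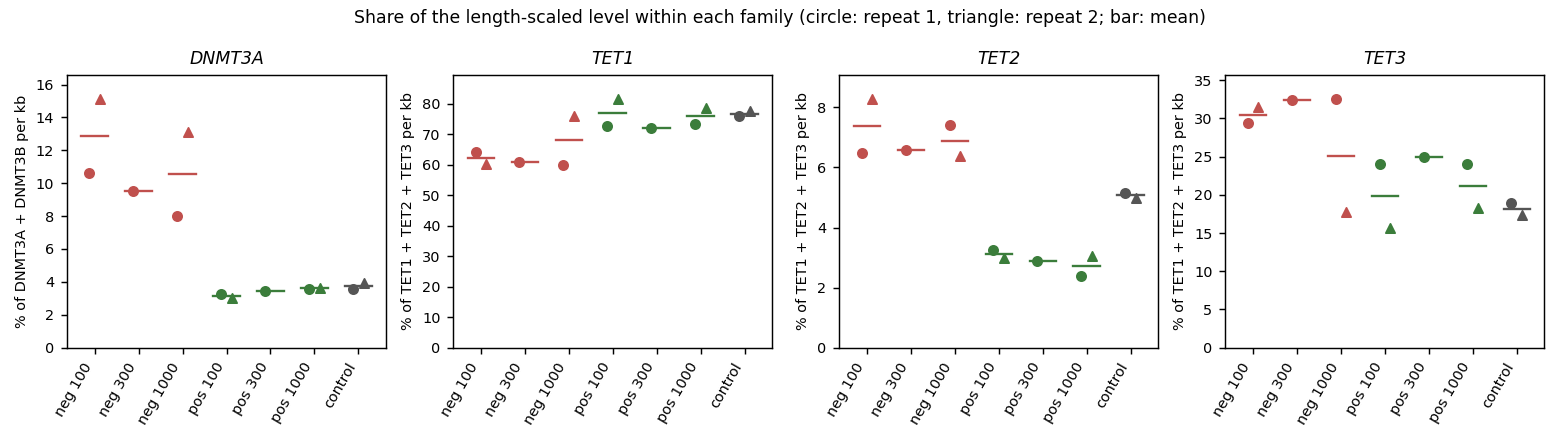
Share of each gene in its family after scaling CPM to exonic length, per library, with SOX2-negative cells on the left, SOX2-positive cells in the middle and control on the right. The DNMT3A share is highest in SOX2-negative libraries (8.02% to 15.1%), and the TET2 share falls into 3 ranges that do not overlap.

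Per kilobase of exon, DNMT3B was the most abundant of the 8 genes in each group, with a median level of 83.5 CPM per kb in SOX2-negative, 331 CPM per kb in SOX2-positive and 281 CPM per kb in control libraries. In SOX2-negative libraries UHRF1 (27.5 CPM per kb) and DNMT1 (26.8) followed with overlapping ranges, then TET1 (10.1) and DNMT3A (9.14), whose ranges also overlapped, TET3 (4.61), TET2 (1.16) and DNMT3L (0.288), the last pair overlapping again. In SOX2-positive libraries the order was DNMT1 (28.2), UHRF1 (19.9), TET1 (14.5), DNMT3A (11.2), TET3 (4.63), TET2 (0.626) and DNMT3L (0.0222), and UHRF1 and TET1 were the neighbours whose ranges overlapped. In control DNMT1 (36.8) and UHRF1 (34.7) overlapped and the rest kept the order of the SOX2-positive libraries. With the longest transcript as the length, DNMT1 stood above UHRF1 in each group, with medians of 48.5 and 32.8 CPM per kb in SOX2-negative libraries, and DNMT3A (11.6) stood above TET1 (10.1) in SOX2-negative libraries, their ranges still overlapping.

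The dose of WNT3A changed none of the 8 genes past the threshold. Between 1000 and 100 ng/ml edgeR called 0 of 17047 symbols in SOX2-negative cells (0%) and 0 in SOX2-positive cells (0%), with 3107 and 293 at an unadjusted p under 0.05, 411 and 5 calls by DESeq2 and 0 and 0 by limma. In SOX2-negative cells the largest fitted changes of the long genes were 0.95 ± 0.40 SE for TET1 and 0.74 ± 0.30 SE for TET2 (log2, adjusted p = 0.26 each). Over the 782 genes with long transcripts the median dose change in these cells was 0.504, against -0.28 over genes of 1.5 to 3 kb. Leaving out replicate 1 at 100 ng/ml keeps the library poor in long transcripts as the lone one at that dose. The dose changes of TET1, TET2 and TET3 in SOX2-negative cells were then 1.61, 1.11 and 0.965 (log2). Without the library poor in long transcripts instead, they were 0.509, 0.448 and 0.051. In SOX2-positive cells DNMT3L had 14 counts at 1000 ng/ml against 1 at 100 ng/ml (adjusted p = 1), 12 of them in replicate 2. The difference of the dose effect between gates passed the test for 0 of the 8 genes and 0 of all symbols by edgeR (0%, with 1349 at an unadjusted p under 0.05, 16 by DESeq2 and 0 by limma).

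Of 14 partners of methylation maintenance, 3 were lower and 0 higher in SOX2-negative than in SOX2-positive cells, beside 11.1% lower and 12.9% higher over all symbols (median log2 fold change -0.269, against 0.0068 over all symbols). CDCA7L, a paralog of the activator of the remodeller HELLS, was at 70.2 ± 11.5 CPM in SOX2-negative and 139 ± 6.37 CPM in SOX2-positive cells (SD, n = 4 each; log2 fold change -1.001 ± 0.14 SE, adjusted p = 0.00037, edgeR). Control held 63.1 ± 3.13 CPM (SD, n = 2), so CDCA7L was higher in SOX2-positive cells than in control (1.14 ± 0.17 SE, adjusted p = 0.0031), the 1 call of the list there. USP7, a deubiquitinase that binds DNMT1 and UHRF1, had 171 ± 39.5 CPM in SOX2-negative and 247 ± 15.7 CPM in SOX2-positive cells (adjusted p = 0.027). The third gene, DPPA3, which keeps UHRF1 off chromatin in mouse, was at 0.0575 ± 0.0668 CPM in SOX2-negative cells, 0.381 ± 0.142 CPM in SOX2-positive cells and 2.06 ± 0.173 CPM in control. Both gates lay near the floor for DPPA3, and its passing the filter may rest on the control libraries where it is high. Without the library poor in long transcripts, 7 of 14 were lower in SOX2-negative than in SOX2-positive cells. Leaving out 1 library also moved the calls over all symbols, from 4085 to between 2638 and 6835.

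Against control, the same 14 genes held 3 lower calls in SOX2-negative cells (median -0.39, against 0.026 over all symbols), beside 10.1% of all symbols. Without the library poor in long transcripts they held 6, and leaving out 1 library moved all calls from 3835 to between 1749 and 6111. The 3 were DPPA3 and the histone H3K9 methyltransferases EHMT2 (185 ± 40 CPM, n = 4, against 335 ± 23.9 CPM in control, n = 2, SD) and SUV39H1 (17 ± 7.27 against 31.8 ± 1.3 CPM). The DPPA3 call carries the same limit, as its passing the filter may rest on control. EHMT2 was at 226 ± 5.32 CPM in SOX2-positive cells, where it was not called against control.

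Of 9 cofactors of the TET enzymes and CXXC proteins, 2 were higher and 0 lower in SOX2-negative than in SOX2-positive cells (median 0.0954), beside 12.9% higher over all symbols. GADD45A, a stress-induced protein implicated in active demethylation, had 41 ± 14.7 CPM in SOX2-negative and 13.6 ± 6.76 CPM in SOX2-positive cells (SD, n = 4 each; log2 fold change 1.64 ± 0.27 SE, adjusted p = 0.0014, edgeR). CXXC5, a zinc finger protein that binds unmethylated CpG, had 189 ± 46.9 and 109 ± 8.58 CPM in the same order, and 101 ± 4.01 CPM in control. Against control, where 12.4% of all symbols were called higher in SOX2-negative cells, CXXC4, its relative reported to bind TET2, CXXC5 and IDH3A, a subunit of the enzyme that makes the TET cosubstrate 2-oxoglutarate, were higher in SOX2-negative cells. IDH3A was higher in SOX2-positive cells too, with 22.4 ± 1.83 CPM in SOX2-negative cells, 24.4 ± 0.939 CPM in SOX2-positive cells and 12.1 ± 1.91 CPM in control. Dissociation stress genes, 11 in all, summed to 813 to 1796 CPM in SOX2-negative, 554 to 1035 CPM in SOX2-positive and 470 and 559 CPM in control libraries, and their part in the GADD45A value was not tested.

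Base excision repair, which removes oxidised cytosine, held 1 call among 11 genes in SOX2-negative cells, against SOX2-positive cells and against control alike, and 0 in SOX2-positive cells against control. Over all symbols 11.1% and 10.1% were called lower in the first 2 comparisons. The gene called lower was PARP1, a sensor of DNA strand breaks, at 348 ± 14.8 CPM in SOX2-negative cells, 720 ± 12.9 CPM in SOX2-positive cells (SD, n = 4 each) and 636 ± 15.7 CPM in control (SD, n = 2). The gate difference was -1.05 ± 0.12 SE (log2, adjusted p = 9.7e-05, edgeR), and the libraries of the gates did not overlap. TDG, the glycosylase that excises oxidised methylcytosine, was among the genes not called.

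Readers of methylated CpG held 1 call among 7 genes between the gates, ZBTB38, at 48.1 ± 13.9 CPM in SOX2-negative and 22.1 ± 4.51 CPM in SOX2-positive cells (SD, n = 4 each; log2 fold change 1.11 ± 0.23 SE, adjusted p = 0.0062, edgeR), and 0 against control in both gates. Over all symbols 12.9% were called higher and 11.1% lower between the gates. Of 14 genes that supply methyl groups, 3 were lower in SOX2-negative than in SOX2-positive cells (median -0.221, against 0.0068 over all symbols). Without the library poor in long transcripts 5 were lower and 1 higher. Leaving out 1 library also moved the calls over all symbols, from 4085 to between 2638 and 6835. MTHFD1, an enzyme of the folate cycle, had 134 ± 10.6 CPM in SOX2-negative and 225 ± 16.6 CPM in SOX2-positive cells (adjusted p = 0.0017). MAT2B, the regulatory subunit of methionine adenosyltransferase, had 38.8 ± 10.7 CPM in SOX2-negative and 62.5 ± 3.38 CPM in SOX2-positive cells (adjusted p = 0.01). Against control, MTHFD1 was lower in SOX2-negative cells (adjusted p = 0.015), and 0 of 14 were called in SOX2-positive cells.

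Germline genes that promoter methylation keeps silent in somatic cells stayed near zero. Of 14 on the list, 4 passed the filter on low counts, and the 14 summed to 0.983 to 2.16 CPM in SOX2-negative, 1.18 to 2.68 CPM in SOX2-positive and 0.806 and 1.07 CPM in control libraries. STK31, a germ cell kinase-like gene, was the 1 called of these 4, beside 12.9% of all symbols called higher between the gates. STK31 was at 1.3 ± 0.483 CPM in SOX2-negative and 0.231 ± 0.162 CPM in SOX2-positive cells (SD, n = 4 each; adjusted p = 0.019, edgeR). Its passing the filter rests on the SOX2-negative libraries where it is high.

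Likeness was measured as the root mean square difference of centred log2 CPM over the 12 libraries, among 11978 genes of at least 5 CPM. The nearest to DNMT3B were CYP2S1 (0.203), PREX2 (0.23) and ADD2 (0.239), where the spread of DNMT3B itself was 1.05. Nearest to DNMT1 were RFWD3 (0.0531), NSD2 (0.0652) and KCMF1 (0.0694), against a spread of 0.187. UHRF1 lay nearest to C1orf198 (0.135), C11orf95 (0.144) and NDST1 (0.144), against 0.349. TET1, with a spread of 0.557, lay nearest to DENND4C (0.13), DCAF17 (0.134) and HERC1 (0.145), which have transcripts of 6.83, 5.83 and 15.1 kb. TET2 lay nearest to TGFBR1 (0.142), SLC5A3 (0.154) and TWSG1 (0.163), and TET3 to AC126755.1 (0.124), SPATA13 (0.125) and EP400 (0.126). DNMT3A lay nearest to PDCD7 (0.0768), YWHAQ (0.0794) and STAU1 (0.0831). For DNMT3L the nearest, ECM1, PCDH8 and PTPN5, lay at 0.539 to 0.67 with its few counts. The libraries share depth, gates and repeats, so these values describe these 12 libraries.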

How the data were processed

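RNA of 12 libraries was selected by its poly-A tail and sequenced as paired ends, per the labels' protocols. Per the submitters' processing notes, Salmon and GRCh38 were used; version, annotation and strand setting are not given in the sources used here. The authors deposited estimated counts per Ensembl gene (37951 rows), not scaled between libraries. Rows sharing 1 of 35940 symbols were summed (1034 symbols have several rows) and rounded. Totals were 16474856 to 28079048.

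Tests used edgeR 4.0.16 in R 4.3.3: TMM scaling, the filterByExpr filter (at least 10 counts, 15 in total), and two-sided quasi-likelihood tests with Benjamini-Hochberg adjustment over 17047 symbols and a threshold of 0.05. One model held 7 group means (5 residual degrees of freedom, prior 5.6). Gates and control were compared over 100 and 1000 ng/ml; the 2 libraries at 300 ng/ml informed no contrast. DESeq2 1.42.0 and limma 3.58.1 were alternatives, with those in the last section. Transcript lengths came from GENCODE 29 (97.7% of tested symbols), promoters from RefSeq.

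Titles of the samples give groups and replicate numbers. The design text describes replicate 2 as another biological repeat in the 1 cell line, which pairs same-numbered libraries; deviations of same-numbered libraries correlated across genes at -0.06 to 0.22 over 10 pairs of groups, 5 over 0.1. Replicates differed by more than sampling noise (chi-square per degree of freedom 22.8 to 142). On data simulated for the comparison of the gates (16531 genes), 4.26% of 1.5-fold, 52.1% of 2-fold, 80.9% of 4-fold and 97.9% of 8-fold changes were recovered, with 4 false among 116 calls. The simulation changed 47 or 48 genes at each size, far fewer than the 4085 called in the data.

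The genes and the 14 lists were chosen with earlier results of these data known. Named were the 8 genes, up to 4 called genes per list and comparison with the largest change, SOX2, and the 3 nearest genes to each of the 8; POU5F1, NANOG, KDR, TDG and the 2 overlapping genes were named beside that rule. One gene that the rule took is not reported here. The length offset was chosen after seeing the data.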

Additional observations from a re-analysis of the deposited data

Results flagged for a closer look

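DNMT1 in SOX2-positive replicate 1 at 1000 ng/ml, at 301.1 CPM, lay apart from the other 3 SOX2-positive libraries at 100 and 1000 ng/ml (272.9 to 275.9 CPM), with a gap of 0.894 of the whole range of the 4. The SOX2-positive library at 300 ng/ml, outside that group, had 310.7 CPM. For 16 groups of 4 libraries looked at, chance sets about 1 in 20 apart in this way.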

How the results depend on the processing

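DNMT3B kept its direction and its call for SOX2-negative against SOX2-positive cells and against control under all 18 alternatives (log2 fold change -2.34 to -1.96 and -2.19 to -1.81). Calls of symbols for SOX2-positive cells against control (1332) became 2059 by DESeq2, 2158 without the filter and 3243 with the compared groups only. Between doses in SOX2-positive cells (0) they became 5 by DESeq2, 107 without the filter and 1 with identifiers apart. In SOX2-negative cells (0) they became 411 by DESeq2, 1551 without the filter, and 1 each with the replicate block, the compared groups only and the length offset. For the difference of the dose effect (0) they became 16, 308 and 1 by DESeq2, without the filter and with identifiers apart. Leaving out 1 library gave 2638 to 6835 calls between the gates, 250 to 2439 for SOX2-positive and 1749 to 6111 for SOX2-negative cells against control, 0 to 5739 for the dose in SOX2-negative cells (5739 without replicate 1 at 100 ng/ml) and 0 to 3795 for its difference between gates.

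Signs reversed for changes that pass no test. Against control, SOX2-positive DNMT3A was 0.053 with plain totals and DNMT3L -0.0091 with the replicate block. The dose change of UHRF1 in SOX2-negative cells was 0.0013 with plain totals. With the length offset, TET3 was 0.11 between the gates, 0.041 and -0.053 for the dose in SOX2-positive and SOX2-negative cells and -0.094 for its difference, and DNMT1 -0.035 for the dose in SOX2-negative cells and -0.12 for its difference. Leaving out 1 library gave TET3 -0.36 to 0.10 between the gates; against control, SOX2-positive DNMT3A -0.060 to 0.035, DNMT3L -1.02 to 0.47 and TET1 -0.044 to 0.30, and SOX2-negative TET2 -0.085 to 0.25 and TET3 -0.068 to 0.39. For the dose it gave, in SOX2-positive cells, DNMT1 -0.018 to 0.13, DNMT3A -0.076 to 0.12, TET1 -0.57 to 0.13, TET3 -0.25 to 0.077 and UHRF1 -0.25 to 0.28, in SOX2-negative cells DNMT3B -0.13 to 0.63 and UHRF1 -0.17 to 0.088, and for its difference UHRF1 -0.32 to 0.21. Outside left-out libraries, calls were gained between the gates by TET1 (DESeq2, no filter, length offset; without the filter also against control and for the dose in SOX2-negative cells) and UHRF1 (DESeq2, limma, block, length offset), and against control by DNMT3L in SOX2-negative cells (DESeq2, limma, compared groups only), by DNMT1 and TET2 in SOX2-positive cells (compared groups only) and by TET2 there (length offset). DNMT1 in SOX2-negative cells lost its call against control without the filter (adjusted p = 0.069) and with the compared groups only (0.11). The causes were not tested. The block changed no other call of the 8 genes. On simulated data 52.1% of 2-fold and 4.26% of 1.5-fold changes between the gates were recovered, so changes of that size can go uncalled. The simulation changed 47 or 48 of 16531 genes at each size and gave 116 calls, against 4085 in the data. The adjusted threshold is stricter where few genes change, so these shares do not give the recovery in the data.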
